A study of Drosophila melanogaster with 8 samples.

Results

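The step into the subjective night was followed in clock neurons sorted from adult Drosophila brains, by setting the 2 libraries collected at circadian time (CT) 18 h against the 2 collected at CT12. These are 4 of the 8 libraries of the series, and they were chosen by their labelled time. The 4 libraries of CT0 and CT6 entered the fit only to estimate the spread between duplicates. Flies of the CT18 and CT12 groups, like all the others analysed here, carried Clk-GAL4 with UAS-GFP-NLS and UAS-mor-RNAi. Clk-GAL4 drives expression across the circadian pacemaker network, so the nuclear green fluorescent protein (GFP) marks the cells and the hairpin against mor acts in the same cells. The brains were taken on the second day of constant darkness after light and dark cycles, and GFP-positive, DAPI-negative cells were collected by flow cytometry. Ages, batches and what the duplicates of a time share are not stated in the labels, so a p-value reflects the spread among these libraries alone, which may be technical. A control genotype was not analysed here, and no value below separates the time of day from the knockdown.

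In flies the heterodimer of Clk and cyc activates its targets through the day and into the evening. These include per and tim, whose proteins later enter the nucleus and repress the dimer, and vri and Pdp1, which repress and activate Clk in a second loop. cwo, a further target, represses the same promoters. Transcripts of per, tim, vri and cwo are known to peak around dusk or early in the night and then to decline, while Clk and cry run in the opposite phase. Clock neurons are also a diverse peptidergic network, in which Pdf is the best known output signal and other peptides mark subsets of cells.

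The libraries held 27232908 and 18863901 estimated counts at CT18, and 28447624 and 15006258 at CT12. Levels are given as CPM, which are counts scaled to an equal library size with TMM factors. The floor of 3 counts stood at 0.103 to 0.194 CPM in the 4 libraries and covers counting error only. Neuronal genes were abundant, and nSyb, the synaptobrevin of neurons, had 1292 and 1367 CPM at CT18, against 1427 and 1855 CPM at CT12. Clock neuron genes such as tim, Pdp1 and Pdf were also high. The glial marker repo did not exceed 0.547 CPM, but the 12 glial markers together summed to 482 to 613 CPM in the 4 libraries. For each gene, the deviation of each library from the gene's mean log2 level over the 8 libraries was set against effective transcript length. This relation differed between libraries. Spearman's rho of that deviation with length over the same 5766 genes was -0.53 and -0.56 at CT18, against -0.11 and 0.47 at CT12. It is a description across genes, relative to the mean of the 8 libraries.

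No gene passed the adjustment between CT18 and CT12. edgeR's quasi-likelihood test called 0 of 9999 genes, which is 0% (smallest adjusted p = 0.904), and 407 genes, or 4.07%, had an unadjusted p under 0.05. Of those, 114 (1.14%) were at higher levels at CT18 and 293 (2.93%) at lower levels. With the length trend of each library removed the split was 125 higher and 166 lower, and on the log2 scale of TPM with a pseudocount of 1 it was 137 and 179. limma-voom called 0 genes, with 355 under an unadjusted p of 0.05. DESeq2 called 5 of 13499 genes, or 0.037%, with 614 under an unadjusted p of 0.05. Those 5 were Rat1 and Obp56h, lower at CT18, and CG14075, Ugt35B1 and CG4815, higher at CT18. Obp56h rests on 1 library, with 0 and 0 CPM at CT18, against 0 and 99.2 CPM at CT12. CG4815 had 0 and 0.10 CPM at CT18, against 0 and 0 CPM at CT12, so its level was under the floor of every library. Obp56h and CG4815 were singled out once their values had been seen.

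The duplicates differed from each other about as much as the times did. The median absolute log2 difference was 0.39 between the CT18 libraries and 0.42 between the CT12 libraries, and it was 0.36 between the means of the times. Both CT18 libraries lay above both CT12 libraries in 1961 genes (19.6%) and below both in 1860 genes (18.6%). Below, "not overlapping" means this separation of the libraries, and these shares are its background. The median change over all tested genes was -0.01 on the log2 scale.

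The direction of change followed transcript length across the transcriptome. Among the shortest quintile of genes 37.6% were higher at CT18 without overlap and 6.25% were lower, whereas in the longest quintile 4.55% were higher and 35.9% were lower. Spearman's rho between the log2 change and effective length was -0.37 over 9999 genes. After a smooth trend of log2 level against length was removed within each library, rho was 0.04, and the non-overlapping shares were 14.5% higher and 15.6% lower. Each change below is therefore given as fitted and, where it matters, with this length trend removed; the part of length in any single result was not tested.

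**Figure D1:**
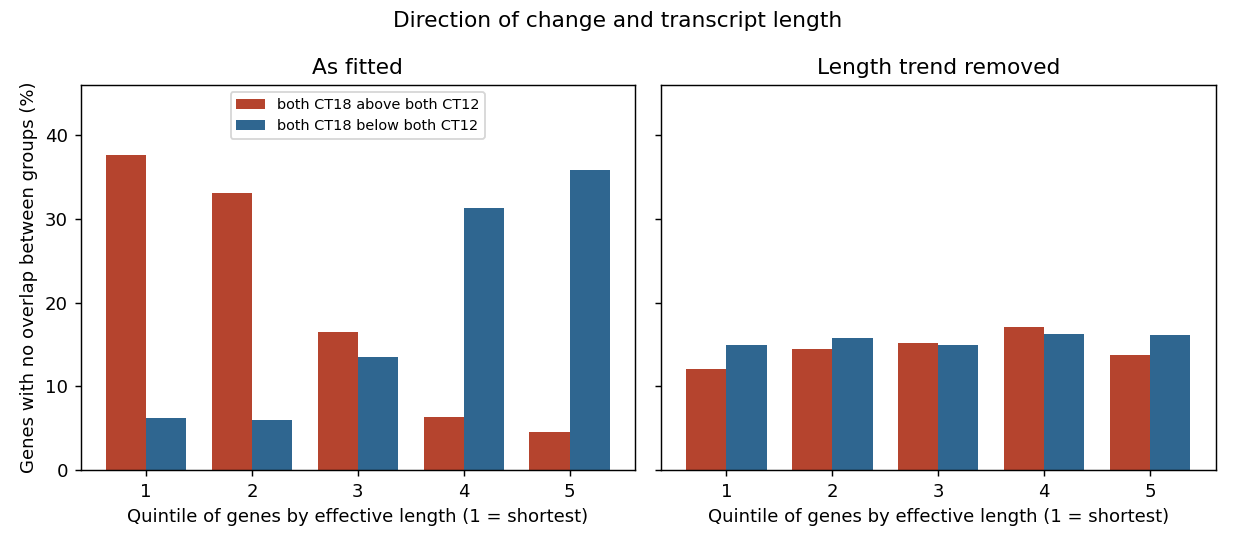
Share of tested genes (y, percent) in which both CT18 libraries lay above (red) or below (blue) both CT12 libraries, by quintile of effective transcript length (x, 1 is the shortest). As fitted, 37.6% of the shortest quintile were higher and 35.9% of the longest quintile were lower; with the length trend removed the 2 directions were closer to equal in each quintile.

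Of the evening targets of the clock, vri and cwo had separated groups and were lower at CT18, though neither passed the test. vri, the repressor of Clk, had 108 and 144 CPM at CT18, against 154 and 368 CPM at CT12. Its libraries did not overlap, and the fitted change was -1.05 ± 0.50 (log2, SE; edgeR adjusted p = 0.904), or -0.65 with the length trend removed. cwo had 40.8 and 45.4 CPM at CT18, against 55.2 and 103 CPM at CT12, again without overlap, with a change of -0.88 ± 0.38 (edgeR adjusted p = 0.904), or -0.49 with the length trend removed. In both genes the second CT12 library was far above the first, and leaving it out brought the change to -0.29 for vri and -0.36 for cwo. In these bulk libraries fewer cells of a type and less RNA per cell cannot be told apart.

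The period genes gave overlapping libraries. tim had 238 and 354 CPM at CT18, against 319 and 644 CPM at CT12, a change of -0.70 ± 0.45. per, at a much lower level, had 8.44 and 18.4 CPM at CT18, against 17.8 and 27.1 CPM at CT12, a change of -0.75 ± 0.56. When single libraries were left out the change ran from -1.13 to -0.11 for tim and from -1.41 to -0.29 for per. Pdp1 was nearly level between the times. It had 831 and 707 CPM at CT18, against 705 and 869 CPM at CT12, and its change of -0.03 ± 0.29 turned to 0.34 with the length trend removed.

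Of the 5 targets together (per, tim, vri, Pdp1 and cwo), 0 were not overlapping and higher and 2 were not overlapping and lower, beside 19.6% and 18.6% of all genes. The median change was -0.75, against -0.01 over all genes, and ran from -1.13 to -0.29 when single libraries were left out. With the length trend removed that median was -0.38, with 1 not overlapping and higher and 1 not overlapping and lower, and all 5 genes are in the longer 2 quintiles of transcripts, where lower levels at CT18 were common.

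The counter-phase genes and the partner of Clk were not separated between the times. Clk had 60.4 and 28.1 CPM at CT18, against 23.3 and 45.2 CPM at CT12, a change of 0.38 ± 0.56 that ran from -0.28 to 0.93 when single libraries were left out. cry, the blue-light receptor, had 397 and 499 CPM at CT18, against 262 and 744 CPM at CT12, with both CT18 libraries inside the CT12 range. cyc, which does not cycle in flies, was nearly level, with 52.0 and 57.2 CPM at CT18, against 58.7 and 45.1 CPM at CT12.

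A clock index was formed per library as the mean log2 CPM of the 5 targets minus that of Clk and cry. It was -0.72 and 0.07 at CT18 (-0.32 ± 0.56, SD, n = 2), against 0.71 and 0.29 at CT12 (0.50 ± 0.29, SD, n = 2). Both CT18 values lay below both CT12 values, and the difference was -0.83, with an exact permutation p = 0.333, the smallest that 2 libraries against 2 allow. It stayed below 0 in every omission of 1 library, between -1.22 and -0.43. All 5 targets in the index are in the longer 2 quintiles of transcripts. Their median change of -0.75 was -0.38 with the length trend removed. The index was also recomputed with that trend removed, and its difference between the times kept its direction. The part of length in the size of that difference was not tested.

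Per transcript length, the order of the clock genes was similar at both times. Pdp1 averaged 241 ± 39.4 TPM at CT18 and 267 ± 34.3 TPM at CT12, close to cry with 267 ± 27.9 TPM at CT18 and 319 ± 216 TPM at CT12 (SD, n = 2). tim followed with 61.1 ± 14.2 TPM at CT18 and 106 ± 50.4 TPM at CT12, and vri with 41.6 ± 6.42 TPM at CT18 and 91.4 ± 52.8 TPM at CT12 (SD, n = 2). cyc averaged 40.0 ± 0.51 TPM at CT18 and 40.3 ± 7.24 TPM at CT12, so it was level with vri at CT18 within the spread (SD, n = 2). per was lowest, at 3.73 ± 1.74 TPM at CT18 and 6.51 ± 1.88 TPM at CT12 (SD, n = 2).

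**Figure D2:**
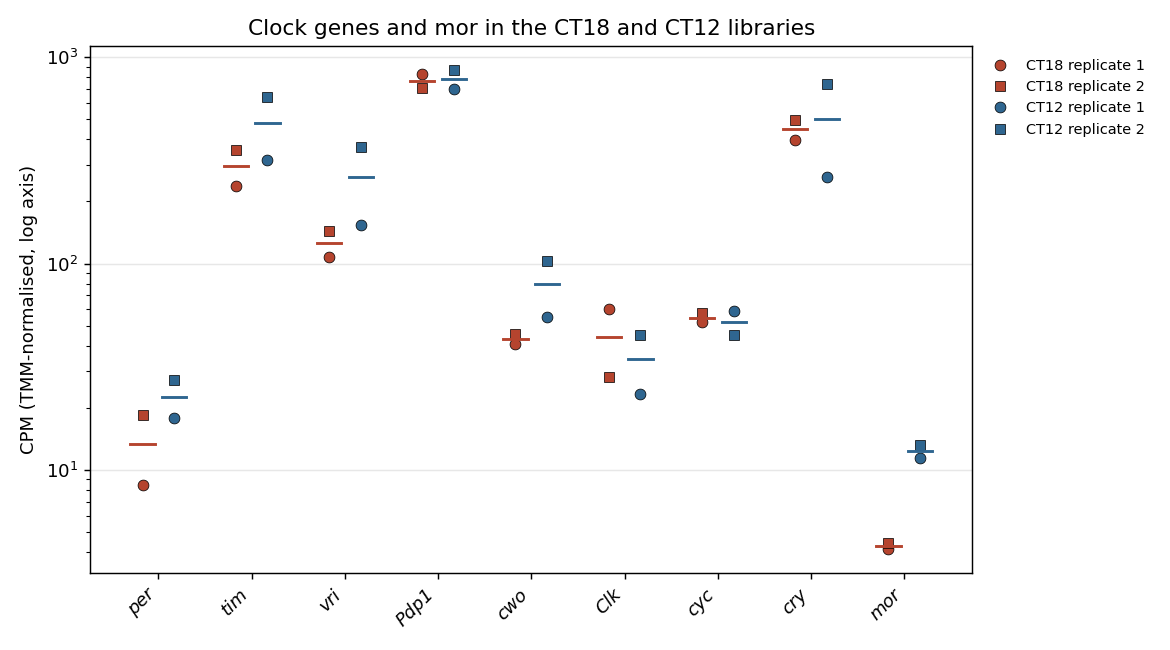
TMM-normalised CPM (y, log axis) of 8 core clock genes and mor in each CT18 (red, left) and CT12 (blue, right) library; circles are replicate 1, squares replicate 2, and short lines are means. vri, cwo and mor are the genes whose CT18 libraries both lie below both CT12 libraries; for mor these are 4.14 and 4.41 CPM, against 11.4 and 13.2 CPM.

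Among genes of proteins that modify the clock the balance of directions depended on the length trend. Of 18 tested members 1 was not overlapping and higher and 7 were not overlapping and lower, beside 19.6% and 18.6% of all genes. The median change was -0.18. The counts were 3 and 4 with the length trend removed, beside 14.5% and 15.6% of all genes, with a median of -0.06. Of the 18 members 13 are in the longer 2 quintiles of transcripts. The kinase gene sgg, the fly glycogen synthase kinase 3 that phosphorylates tim protein, had 172 and 179 CPM at CT18, against 218 and 356 CPM at CT12. slmb, an F-box protein of per degradation, had 83.3 and 70.4 CPM at CT18, against 95.5 and 140 CPM at CT12. Both were without overlap, with changes of -0.71 ± 0.31 and -0.62 ± 0.25, which were -0.37 and -0.28 with the length trend removed. The casein kinase gene dco had 9.70 and 11.8 CPM at CT18, against 8.58 and 10.5 CPM at CT12, and its groups overlapped.

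mor, the target of the hairpin and a scaffold subunit of Brahma, a complex that remodels chromatin, was at about one level within each time and lower at CT18. Its libraries had 4.14 and 4.41 CPM at CT18, against 11.4 and 13.2 CPM at CT12, so the groups were well separated and the duplicates close. The fitted change was -1.53 ± 0.53 (log2, SE; edgeR unadjusted p = 0.018, adjusted p = 0.904), or -1.17 with the length trend removed. It lay between -1.64 and -1.42 without any 1 of the libraries. Since all groups carry the hairpin, these values do not measure the knockdown. Most other subunits did not share this separation. brm, the ATPase, had 25.4 and 37.3 CPM at CT18, against 33.4 and 31.9 CPM at CT12, and Snr1 had 92.2 and 133 CPM at CT18, against 96.5 and 120 CPM at CT12. Of 12 tested members of the complex 2 were not overlapping and lower, mor and the scarce Bap111, beside 18.6% of all genes. The list's median change was -0.17, or 0.00 with the length trend removed.

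The 12 leading genes lower at CT18 by p included Rat1, Edc3 and Fcp1, which are grouped here under RNA metabolism with their values in view. Rat1, the nuclear exoribonuclease that degrades RNA from its 5' end, lies at 2L 6908083 to 6911423 on the forward strand. It had 12.3 and 10.7 CPM at CT18, against 38.2 and 38.1 CPM at CT12, with close duplicates, so the level at CT18 was 0.30 times that at CT12. The change was -1.73 ± 0.29 (edgeR unadjusted p = 0.000195, adjusted p = 0.904; DESeq2 adjusted p = 0.000229), or -1.38 with the length trend removed, and between -1.83 and -1.64 without any 1 library. Its annotated span shares 334 bases with Wee1 on the opposite strand, and because strand use in counting is not given, reads of the shared stretch cannot be told apart. The same holds for other genes described here whose spans meet that of a gene on the other strand. Among these are Fcp1, Patj, CG34136, Hr38, usp, Gp93, PGAP3, mRpL11 and mRpL17. The span of usp also shares 3514 bases with Actn on the same strand.

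Edc3, an enhancer of mRNA decapping, had 65.9 and 74.2 CPM at CT18, against 121 and 183 CPM at CT12, a change of -1.12 ± 0.26, or -0.73 with the length trend removed. Fcp1, the phosphatase of the RNA polymerase II tail, had 25.1 and 38.3 CPM at CT18, against 67.5 and 74.8 CPM at CT12, a change of -1.17 ± 0.31. Both genes kept their groups apart. Outside RNA metabolism the same rule took in Rubicon, a regulator of autophagy, dbo, an adaptor of Cullin-3 ligases, Patj, a scaffold of cell polarity, and GlcT, the glucosylceramide synthase. Their changes were -1.48 ± 0.36, -1.23 ± 0.30, -1.24 ± 0.31 and -1.29 ± 0.34. With sr, described below, and with CG6154, CG7839, CG13204 and CG13366, the 12 leading lower genes had changes between -1.73 and -1.12, and all 12 kept their sign with the length trend removed.

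Several of the genes leading in the other direction were at low levels at CT12. CG14075, a short gene at 3L 18984961 to 18985634 with no role given here, had 158 and 46.2 CPM at CT18, against 8.65 and 15.5 CPM at CT12. Its change was 3.09 ± 0.59 (edgeR unadjusted p = 0.00044, adjusted p = 0.904; DESeq2 adjusted p = 8.04e-05), and the 2 CT18 libraries lay far apart. Ugt35B1, a UDP-glycosyltransferase long known as a cycling gene of fly heads, had 13.9 and 22.5 CPM at CT18, against 2.46 and 2.07 CPM at CT12. The change was 3.00 ± 0.72, nearly unaltered at 2.94 with the length trend removed (DESeq2 adjusted p = 0.0206).

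Irc, an immune-regulated catalase, had 51.4 and 66.7 CPM at CT18, against 22.8 and 8.78 CPM at CT12, a change of 1.90 ± 0.46. Both CT18 libraries lay above both CT12 libraries, which were themselves apart. glob1, a globin, had close duplicates, with 118 and 130 CPM at CT18, against 65.6 and 61.5 CPM at CT12, a change of 0.96 ± 0.22. The gustatory receptor gene Gr61a had 8.62 and 18.1 CPM at CT18, against 3.66 and 1.87 CPM at CT12, a change of 2.26 ± 0.60.

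CG4991 had 600 and 154 counts at CT18, against 1 and 0 counts at CT12. Normalised for library size this is a ratio of 702, with an exact binomial 95% counting interval of 126 to 27752 that leaves out the spread between libraries. Its span shares 6635 annotated bases with CG16700 on the same strand. The other leading genes were l(3)72Dp, CG16758, CG34136, PGAP3, Mip and CCHa2, with changes between 0.87 and 4.60. Apart from CG4991, the 11 changes lay between 0.67 and 4.33 with the length trend removed.

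**Figure D3:**
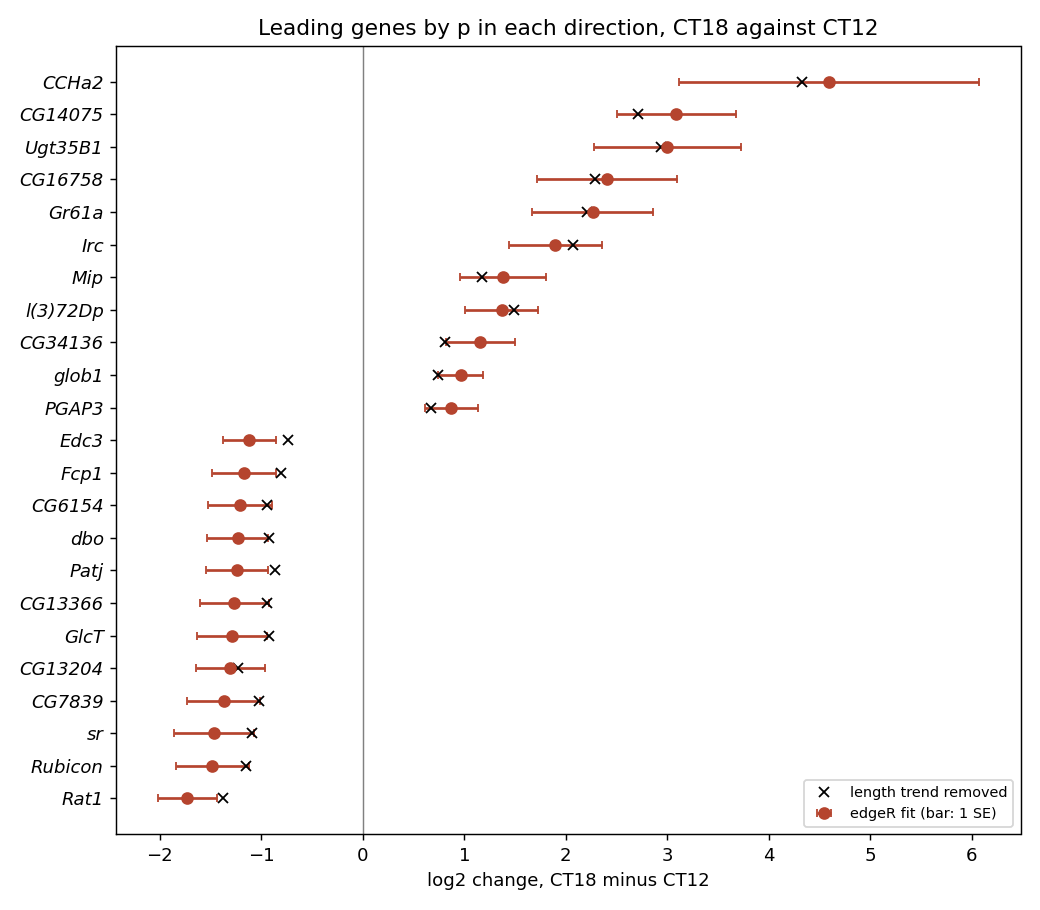
Log2 change, CT18 minus CT12 (x), of the leading genes in each direction by p among genes without overlap and with a mean of at least 5 CPM, with 1 SE (bars) and the value with the length trend removed (crosses). CG4991, with 1 count at CT12, is not drawn. All lower genes move towards 0 when the trend is removed, and none crosses it.

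Several peptide genes differed widely between duplicates, and NPF had the lowest fitted change of the list. NPF, the fly neuropeptide F made by a subset of clock neurons, lies at 3R 16609220 to 16611325. It had 10.5 and 43.4 CPM at CT18, against 1303 and 408 CPM at CT12, so the fitted level at CT18 was 0.031 times that at CT12. The change was -4.99 ± 1.59 (edgeR unadjusted p = 0.011, adjusted p = 0.904) and hardly moved, to -5.19, with the length trend removed. The CT6 libraries, which enter no comparison here, had 28.2 and 2747 CPM, so duplicates of 1 time also lay far apart.

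Mip, which encodes the myoinhibiting peptides, had 3074 and 6196 CPM at CT18, against 1376 and 2188 CPM at CT12, without overlap. Its change was 1.38 ± 0.43 (edgeR adjusted p = 0.904), or 1.18 with the length trend removed. CCHa1, a peptide of dorsal clock neurons, had 511 and 652 CPM at CT18, against 109 and 419 CPM at CT12, a change of 1.14 ± 0.53. ITP, the ion transport peptide of evening neurons, had 2410 and 2844 CPM at CT18, against 2017 and 1764 CPM at CT12, also without overlap.

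Pdf differed widely between its duplicates. It had 1646 and 14085 CPM at CT18, against 8820 and 18003 CPM at CT12, and the first CT18 library lay below all others of these times. Trissin had 778 and 1300 CPM at CT18, against 9.03 and 1673 CPM at CT12, and without the second CT12 library edgeR gave a change of 6.85 (adjusted p = 0.0095), whereas with both it was 0.31 ± 1.35. Ms, the myosuppressin gene, had 494 and 1911 CPM at CT18, against 4606 and 1245 CPM at CT12.

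Of 15 peptide genes tested, 3 were not overlapping and higher (ITP, CCHa1 and Mip) and 2 were not overlapping and lower (NPF and Nplp1). These shares stand beside 19.6% and 18.6% of all genes. Removing the length trend gave counts of 2 and 3, and the median change of 0.31 became -0.10, so its sign depends on that setting. Outside this list, CCHa2 had 13.3 and 64.5 CPM at CT18, against 2.74 and 0.32 CPM at CT12, a change of 4.60 ± 1.48.

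**Figure D4:**
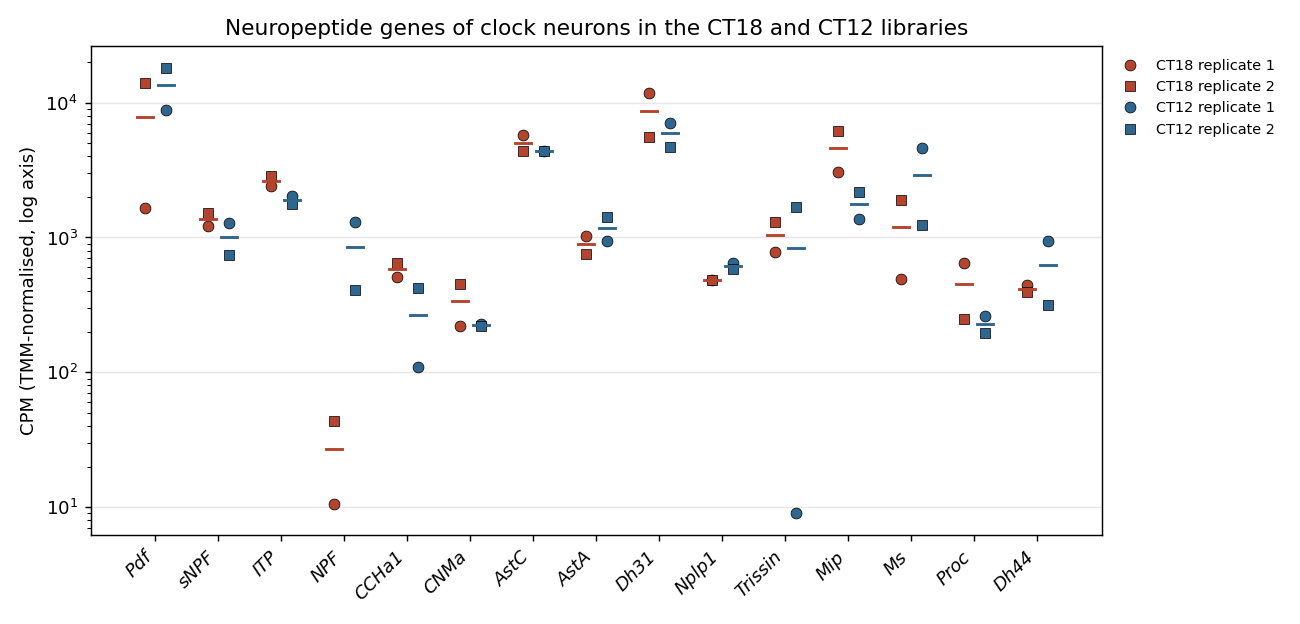
TMM-normalised CPM (y, log axis) of 15 neuropeptide genes in each CT18 (red, left) and CT12 (blue, right) library; circles are replicate 1, squares replicate 2, and short lines are means. NPF is lower in both CT18 libraries (10.5 and 43.4 CPM, against 1303 and 408 CPM), while Pdf and Trissin each have 1 low library, of CT18 and of CT12.

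Receptor genes for these peptides were expressed at much lower CPM. NPFR, the receptor of NPF, had 8.58 and 10.2 CPM at CT18, against 18.4 and 25.8 CPM at CT12, without overlap, a change of -1.23 ± 0.55 (edgeR unadjusted p = 0.049, adjusted p = 0.904). Its change was -0.93 with the length trend removed. The receptor of Pdf, Pdfr, was higher without overlap, with 81.8 and 99.5 CPM at CT18, against 63.6 and 79.0 CPM at CT12, a change of 0.35 ± 0.27, or 0.70 with the length trend removed. Of 15 receptor genes 14 were tested, of which 1 was not overlapping and higher and 4 were not overlapping and lower. These counts stand beside 19.6% and 18.6% of all genes, and the median was -0.07. The balance turned round with the length trend removed, to 4 higher and 1 lower, beside 14.5% and 15.6% of all genes, and a median of 0.18. dimm, a transcription factor of peptidergic cells, had 12.6 and 16.9 CPM at CT18, against 27.2 and 22.3 CPM at CT12, without overlap, a change of -0.75 ± 0.33. Of 9 tested genes of peptide processing and release, dimm among them, 2 were not overlapping and higher and 2 were not overlapping and lower (2 and 1 with the length trend removed). As fitted, these stand beside 19.6% and 18.6% of all genes. The higher ones were svr, a carboxypeptidase, with 1147 and 1079 CPM at CT18, against 925 and 924 CPM at CT12, and Phm, an amidating enzyme, with 1520 and 1744 CPM at CT18, against 1388 and 1441 CPM at CT12. Their changes were 0.27 ± 0.26 and 0.21 ± 0.23. amon, a prohormone convertase, overlapped, with 325 and 464 CPM at CT18, against 417 and 502 CPM at CT12.

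Among transmitter genes the 2 that were higher at CT18 without overlap were both monoamine transporter genes, a share (14.3%) below that of all genes (19.6%). Single libraries weighed on the dopamine genes. SerT, the serotonin transporter, had 191 and 160 CPM at CT18, against 103 and 117 CPM at CT12, without overlap, a change of 0.67 ± 0.33, or 1.02 with the length trend removed. Vmat, the vesicular monoamine transporter, had 704 and 1042 CPM at CT18, against 554 and 654 CPM at CT12, also without overlap. ple, the tyrosine hydroxylase of dopamine synthesis, had 167 and 137 CPM at CT18, against 557 and 148 CPM at CT12, and without the first CT12 library its change of -1.21 was 0.03. DAT, the dopamine transporter, showed the same high first CT12 library, with 192 and 154 CPM at CT18, against 418 and 122 CPM at CT12. Of 14 tested transmitter genes 2 were not overlapping and higher and 2 were not overlapping and lower, beside 19.6% and 18.6% of all genes, with a median of -0.10. Once the length trend was removed 2 were higher and 0 were lower without overlap, and the median was 0.23.

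Activity-regulated transcripts, which neurons induce when they fire, were mostly lower at CT18. sr, a zinc finger factor of the Egr family, had 26.3 and 29.2 CPM at CT18, against 65.0 and 88.7 CPM at CT12, a change of -1.47 ± 0.40 (edgeR unadjusted p = 0.0044, adjusted p = 0.904), or -1.09 with the length trend removed. Hr38, the nuclear receptor most used as an activity marker in insects, had 18.2 and 30.4 CPM at CT18, against 49.2 and 39.6 CPM at CT12, and kay, the fly Fos, had 45.4 and 32.8 CPM at CT18, against 52.7 and 78.0 CPM at CT12. Neither pair overlapped, with changes of -0.87 ± 0.60 and -0.74 ± 0.56. Of 8 tested members 5 were not overlapping and lower and 1, Atf3, was not overlapping and higher, beside 18.6% and 19.6% of all genes. The list's median was -0.48. With the length trend removed 5 were lower and 2 were higher without overlap, with a median of -0.29, and 6 of its 8 members are in the longer 2 quintiles of transcripts.

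In signalling through cAMP, which couples peptide receptors to the clock, the 2 genes of smallest p were lower at CT18 without overlap. Epac, a cAMP-activated exchange factor, had 31.6 and 32.9 CPM at CT18, against 53.2 and 54.3 CPM at CT12, a change of -0.74 ± 0.25 (edgeR unadjusted p = 0.014, adjusted p = 0.904). Pka-C1, the catalytic subunit of protein kinase A, had 268 and 251 CPM at CT18, against 375 and 494 CPM at CT12, a change of -0.74 ± 0.28. With the length trend removed these were -0.47 and -0.37. Over 12 tested members 2 were not overlapping and higher and 4 were not overlapping and lower, beside 19.6% and 18.6% of all genes. The median was -0.19. With the trend removed the counts were 2 and 3, beside 14.5% and 15.6% of all genes, with a median of 0.07.

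Ion channel genes changed their balance with the length trend, and 26 of the 28 tested are in the longer 2 quintiles of transcripts. As fitted 2 were not overlapping and higher and 7 were not overlapping and lower, beside 19.6% and 18.6% of all genes. The median was -0.05. Without the length trend 9 were higher and 3 were lower without overlap, beside 14.5% and 15.6% of all genes, with a median of 0.14. The potassium channel gene Shaw had 28.6 and 41.4 CPM at CT18, against 49.5 and 74.8 CPM at CT12, and Shal had 39.5 and 33.7 CPM at CT18, against 47.7 and 56.4 CPM at CT12. Their changes were -0.83 ± 0.34 and -0.51 ± 0.26, or -0.47 and -0.14 with the trend removed. Of the higher ones, the potassium channel gene eag had 29.6 and 25.3 CPM at CT18, against 20.9 and 20.3 CPM at CT12, a change of 0.41 ± 0.36, or 0.65 with the trend removed. The sodium leak channel na, which sets the daily excitability rhythm of clock neurons, had 8.41 and 12.0 CPM at CT18, against 10.3 and 9.23 CPM at CT12, and its groups overlapped. Synaptic release genes had 1 non-overlapping higher and 7 non-overlapping lower members of 14, with a median of -0.30, beside the same shares of all genes. Once the trend was removed, 4 were higher and 3 lower, with a median of -0.06. An example is shi, the dynamin of vesicle recycling, with 1546 and 1263 CPM at CT18, against 1967 and 1858 CPM at CT12.

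Of 16 tested heat shock genes 8 were not overlapping and lower at CT18 and 1 was not overlapping and higher, beside 18.6% and 19.6% of all genes. The median was -0.44. Without the length trend 6 were lower and 0 were higher without overlap, beside 15.6% and 14.5% of all genes, with a median of -0.34. Hsp68 had 998 and 1044 CPM at CT18, against 1448 and 2037 CPM at CT12, a change of -0.77 ± 0.45. The chaperone Hsp83 overlapped, with 3011 and 4190 CPM at CT18, against 4161 and 5097 CPM at CT12. The higher one was Hsp22, a mitochondrial small heat shock protein, with 2936 and 3310 CPM at CT18, against 2095 and 2497 CPM at CT12, a separation that was lost with the trend removed (changes of 0.44 and 0.11). Hsp70 copies are near-identical, so the split of reads among them is uncertain. Each copy counts as a separate member above, though the copies may share reads. Hsp70Ab had 2144 and 3386 CPM at CT18, against 3793 and 5661 CPM at CT12.

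Of 13 tested genes of the unfolded protein response 1 was not overlapping and higher and 3 were not overlapping and lower, beside 19.6% and 18.6% of all genes. Removing the length trend made the counts 2 and 2, and the median of -0.16 became 0.01. Gp93, a chaperone of the endoplasmic reticulum, had 89.6 and 142 CPM at CT18, against 185 and 244 CPM at CT12, a change of -0.89 ± 0.38, and Hsc70-3, the fly BiP, had 351 and 623 CPM at CT18, against 768 and 858 CPM at CT12. Both were without overlap, as was Herp by a narrow margin. The chaperone Cnx99A overlapped, with 430 and 647 CPM at CT18, against 523 and 629 CPM at CT12, and Sil1, an exchange factor of BiP, was higher without overlap, with 42.4 and 41.3 CPM at CT18, against 36.4 and 33.0 CPM at CT12.

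Some regulators of hormone, nutrient and dosage responses also stood lower at CT18. usp, the partner of the ecdysone receptor, had 28.4 and 56.4 CPM at CT18, against 70.4 and 87.6 CPM at CT12, a change of -0.90 ± 0.38. foxo, the transcription factor restrained by insulin signalling, had 6.46 and 8.92 CPM at CT18, against 15.1 and 16.3 CPM at CT12, a change of -1.03 ± 0.43. msl-1, a subunit of the male dosage compensation complex, had 7.78 and 11.7 CPM at CT18, against 24.4 and 19.0 CPM at CT12, a change of -1.16 ± 0.42. None of the 3 genes overlapped, and their changes were -0.79, -0.70 and -0.86 with the length trend removed. The ecdysone receptor gene itself, EcR, did overlap, with 33.8 and 31.9 CPM at CT18, against 33.7 and 63.5 CPM at CT12. Of 12 tested genes of the ecdysone response 1 was not overlapping and higher and 4 were not overlapping and lower, beside 19.6% and 18.6% of all genes. With the length trend removed these counts were 1 and 1, and the median of -0.34 became 0.01. Of 6 genes of dosage compensation 3 were not overlapping and lower, with or without the trend. Over all genes these shares were 18.6% as fitted and 15.6% with the trend removed.

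Genes of ribosomes, respiration and the proteasome were higher at CT18 in large numbers, and many of them are short. In the shortest quintile of genes were 55 of 73 tested mitochondrial ribosomal proteins, 78 of 82 cytoplasmic ones, 51 of 65 genes of oxidative phosphorylation and 9 of 35 proteasome genes. The lists held 73, 88, 80 and 47 members, and the remainder did not pass the filter on low counts. Of 73 tested mitochondrial ribosomal proteins 55 were not overlapping and higher and 0 were lower, and of 82 cytoplasmic ribosomal proteins 39 were higher and 0 were lower. Of 65 genes of oxidative phosphorylation 40 were higher and 1 was lower, and of 35 proteasome genes 18 were higher and 0 were lower. All these stand beside 19.6% higher and 18.6% lower among all genes. The medians were 0.39, 0.19, 0.30 and 0.21. With the length trend removed they were 0.13, -0.13, 0.03 and 0.04, so for cytoplasmic ribosomal proteins the sign flipped. The non-overlapping counts then were 18 higher and 2 lower for mitochondrial ribosomal proteins, 0 and 6 for cytoplasmic ones, 14 and 6 for oxidative phosphorylation, and 2 and 4 for the proteasome, beside 14.5% and 15.6% of all genes.

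The mitochondrial ribosomal proteins held the largest of these shares. mRpL11 had 35.6 and 32.3 CPM at CT18, against 21.6 and 18.7 CPM at CT12, a change of 0.75 ± 0.32, or 0.42 with the length trend removed. mRpL17 had 68.4 and 61.6 CPM at CT18, against 49.0 and 26.8 CPM at CT12, a change of 0.78 ± 0.32, or 0.47 with the trend removed. Of the 55 members in the shortest quintile of genes 45 were higher without overlap, beside 37.6% of all genes in that quintile. Respiration was represented by ND-19 of complex I, with 180 and 194 CPM at CT18, against 147 and 105 CPM at CT12. Among proteasome genes Prosbeta5 had 393 and 467 CPM at CT18, against 308 and 295 CPM at CT12. The glycolytic gene Gapdh2 had 3488 and 3935 CPM at CT18, against 2911 and 2608 CPM at CT12. Glycolysis as a list did not share the direction, with 3 higher and 3 lower of 12 without overlap and a median of -0.07.

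**Figure D5:**
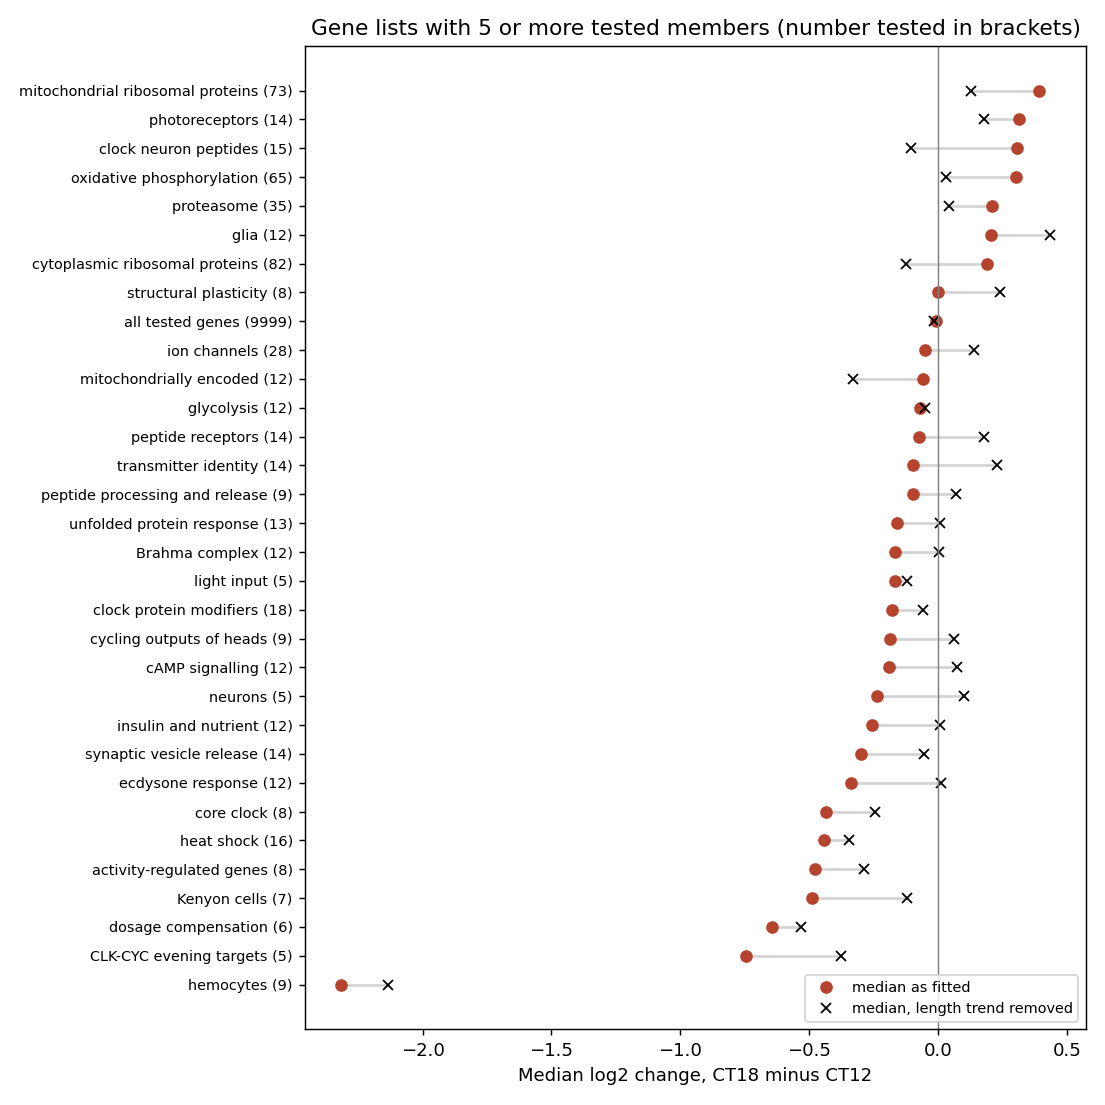
Median log2 change, CT18 minus CT12 (x), of each gene list with 5 or more tested members (number in brackets), as fitted (red dots) and with the length trend of each library removed (crosses). Lists of short genes at the top, such as mitochondrial ribosomal proteins (0.39 and 0.13), and several lists of long genes move towards 0; the hemocyte list (-2.32) rests on 1 CT12 library.

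Markers of hemocytes and photoreceptors differed widely between duplicates. The 10 hemocyte markers summed to 78.0 and 145 CPM at CT18, against 279 and 144 CPM at CT12, and the excess was in the first CT12 library, with 25.0 CPM of Hml and 29.7 CPM of NimC1. Hml was at 0 in the first CT18 and the second CT12 library, and had 4.82 CPM in the second CT18 library. The 14 photoreceptor markers summed to 42.7 and 347 CPM at CT18, against 124 and 137 CPM at CT12, with ninaE, the main rhodopsin, at 177 CPM in the second CT18 library and 0.45 CPM in the first. Muscle markers summed to 2.00 CPM or less in each library.

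Glial markers had overlapping sums, of 613 and 482 CPM at CT18, against 581 and 574 CPM at CT12. Their mean log2 CPM, in which scarce members weigh as much as abundant ones, did not overlap, at 3.51 and 3.38 at CT18, against 2.97 and 1.77 at CT12. Of the 12 markers 9 were at higher levels at CT18, of which 2, Mdr65 and Indy, did not overlap. These 2 are 16.7% of the list, beside 19.6% of all genes. The median change was 0.21, or 0.43 with the length trend removed. Mdr65, a transporter of the blood-brain barrier, had 6.32 and 2.90 CPM at CT18, against 0 in both CT12 libraries. That is an at least 73.8-fold higher level, taking 3 counts over the CT12 group as the floor. The first CT12 library, with the excess of hemocyte markers, also had the highest ple, DAT, NPF and Ms of the 4 libraries, and the part of other cells in the changes above was not tested.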

How the data were processed

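Polyadenylated RNA of sorted cells was amplified with a NEBNext low-input kit, made into Nextera XT libraries and read as paired ends, per the labels' protocols. The submitters' processing notes name DRAGEN, Salmon and dm6; versions, roles and use of strand are not given there. The deposited tables hold, per the file headers, an estimated count (expected count, not normalised by the authors) and a TPM value for 17868 genes. Counts were rounded, filtered (edgeR 4.0.16 filterByExpr, minimum count 10; 9999 genes kept) and scaled by TMM. The test was edgeR's quasi-likelihood F-test in R 4.3.3 on 8 libraries with time as a factor, for CT18 minus CT12, two-sided, with Benjamini-Hochberg adjustment at 0.05. On counts simulated with known changes at CT18 and no length trend, 50 genes were set at each log2 change. The test recovered 12% at a change of 1, 50% at 2, 76% at 3 and 74% at 4. There were 6 false calls among 9799 unchanged genes. Most changes of 1 were thus missed, so the absence of calls does not mean that no gene changed. Deviations of replicate 1 from the mean of its time correlated at 0.015 between CT18 and CT12, and at -0.066 to 0.23 over all pairs of times. Replicate 1 had the higher mitochondrial share of reads at every time, for example 0.19% against 0.073% at CT18 and 0.15% against 0.098% at CT12. Whether libraries of the same replicate number share a batch was not tested.

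For the length trend, a lowess curve (span 0.3, genes of log2 CPM of at least 4) of each library's log2 CPM, as deviation from the mean, against effective length entered the edgeR fit as an offset. Other alternatives were DESeq2 1.42.0, limma-voom (limma 3.58.1), RLE, no filter, a filter of 5 CPM, log2 TPM with pseudocounts of 1 and 0.1, an effective length offset, a replicate block, a robust prior, no mitochondrial genes, the 4 libraries alone, and leaving out each library.

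Members and the 35 gene lists were chosen with earlier results of these data known. Named were the core clock genes and mor, 12 genes per direction by p (no overlap, mean of at least 5 CPM), and the 2 smallest p per list; other list members, Obp56h and CG4815 were picked with their values in view. Genome positions come from Ensembl release 115 (BDGP6.54), on the dm6 coordinates.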

Additional observations from a re-analysis of the deposited data

How the results depend on the processing

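No gene passed the adjustment under 11 other settings, among them limma-voom and log2 TPM, while 5 passed with DESeq2 and 74 with no filter on low counts (23 higher, 51 lower, among them NPF, Mip, Rat1, CG14075, Irc and sr); the cause was not tested. Genes with an unadjusted p under 0.05 numbered 614 with DESeq2 and 768 with no filter, against 407. Leaving out 1 library gave 0 to 1 calls and 277 to 594 such genes: without CT12 replicate 1 the call was Obp56h (adjusted p = 0.011), and without CT12 replicate 2 it was Trissin (adjusted p = 0.0095). The replicate block gave 0 calls and 376 genes with an unadjusted p under 0.05. What libraries of the same replicate number share is not stated in the labels. The log2 change reversed for Pdp1 (0.34) and Rab3 (0.041) with the length trend removed, for cry with limma-voom (0.022) and the replicate block (0.051), and for ninaE with limma-voom (-1.06) and log2 TPM + 0.1 (-0.29). It also changed sign when single libraries were left out, with ranges of -0.28 to 0.93 for Clk, -0.10 to 0.27 for cyc, -0.18 to 0.13 for Pdp1, -0.74 to 0.78 for cry, -7.06 to 6.09 for qsm, -2.57 to 0.50 for regucalcin, -0.40 to 0.97 for Mmp2, -1.87 to 0.034 for ple, -0.77 to 0.21 for E(spl)m6-BFM, -2.001 to 1.08 for Ilp2, -6.02 to 3.18 for Drs, -5.63 to 0.84 for Rh4, -4.73 to 3.86 for ninaE, -11.53 to 5.71 for NimC1, -6.18 to 4.15 for Ppn, -8.80 to 0 for Yp1, -0.068 to 1.55 for apolpp, -1.85 to 0.25 for Tm2, -4.91 to 3.61 for Mlc2 and -1.19 to 0.59 for lrRNA. The clock index and mor kept their direction under every setting run. Precision is limited by 2 libraries per time and, for genes of few counts, by depth.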

Other observations

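Of 12 tested glycolytic genes 3 were not overlapping and higher at CT18 and 3 were not overlapping and lower, beside 19.6% and 18.6% of all genes, with a median change of -0.07 (log2, CT18 minus CT12). With the length trend removed 1 was higher and 2 were lower without overlap, with a median of -0.05. Among 13 genes of insulin and nutrient signalling 12 were tested. Without overlap 0 were higher and 1, foxo, was lower, beside 19.6% and 18.6% of all genes. Ilp3, an insulin-like peptide of brain secretory cells, had 4.93 and 6.95 CPM at CT18, against 43.6 and 0.39 CPM at CT12, so its level differed most between the CT12 duplicates.

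Genes known to cycle in whole heads were mostly scarce in these cells. Of 12 listed 9 passed the filter on low counts, and 2 of these were not overlapping and higher, Ugt35B1 and CG11891, beside 19.6% of all genes. CG11891 was scarce, with 0.80 and 1.35 CPM at CT18, against 0.17 and 0 CPM at CT12, a change of 3.46 ± 2.48. The 1 that was not overlapping and lower, beside 18.6% of all genes, was Slob, which binds the slowpoke potassium channel. Slob had 61.5 and 55.8 CPM at CT18, against 90.9 and 78.1 CPM at CT12. The transcripts to, Cyp4d21 and Cyp18a1 were at 0 in all 4 libraries.

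Mitochondrially encoded transcripts followed the library more than the time. COX1, a subunit of complex IV, had 610 and 242 CPM at CT18, against 472 and 342 CPM at CT12, and CYTB of complex III had 412 and 137 CPM at CT18, against 308 and 172 CPM at CT12. In both genes the first library of each time was the higher one.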
